A study of Mus musculus with 9 samples.

Results

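The genes described here are Zbtb16 and 5 genes that respond to glucocorticoid hormone or transmit its signal, namely Fkbp5, Tsc22d3, Sgk1, Nr3c1 and Klf9. These 6 genes, out of 18194 with a probe set of their own on the array, were covered by 24 of the 34958 probe sets that the annotation gave to 1 gene alone. The set was chosen by the Zbtb16 values of the organoid arrays, which separated by replicate letter, so the letter differences below are a description of what was selected and carry no test.

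RNA was hybridised to 9 Affymetrix mouse arrays, 3 for each of 3 kinds of mammary sample, with biological replicates lettered A, B and C. The first kind was luminal differentiated (LD) cells, sorted by FACS as lineage-negative, EpCAM-high, CD49f-low and CD61-negative and lysed without culture (labelled Lum). The second was organoids grown from sorted mammary stem cells (MaSCs, labelled Org). The third was organoids from yMaSCs, which are LD cells that had received lentiviruses for rtTA and doxycycline-inducible wild-type YAP and had then been cultured with doxycycline to switch YAP on (labelled yOrg). The cells came from young adult virgin C57BL/6J females, the labels name no other allele, and both kinds of organoid shared undiluted Matrigel and a medium with EGF, bFGF, heparin, noggin and R-Spondin1 and were kept without further doxycycline. No steroid is among the medium supplements that the labels list, which does not show that the medium was free of hormone. Hormone was not measured here. LD cells therefore differed from organoids in culture as well as in cell type, and these cannot be told apart.

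Glucocorticoids enter the cell and bind the glucocorticoid receptor, which Nr3c1 encodes and which HSP90 and its partner proteins hold ready in the cytoplasm. The bound receptor moves to the nucleus, pairs up on palindromic response elements and recruits coactivators to raise transcription. Fkbp5, Tsc22d3, Sgk1, Klf9, Per1 and Zbtb16 are among the genes commonly induced. Several are also targets of the mineralocorticoid and progesterone receptors, which bind the same element. In the mammary gland glucocorticoids act with prolactin and insulin on milk protein genes.

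Several arrays stood apart from others of their kind. LD array B had the milk genes Csn2 at 3.44 and Wap at 4.33 on the log2 scale, against 12.97 or more and 10.91 or more in the other LD arrays. Its summed linear intensity over 3 adipocyte markers was 1960 against 34 and 36, and over 5 endothelial markers 287 against 76 and 82. The adipocyte sum came mainly from 1 gene, Fabp4, at 10.92 log2 in LD array B. Adipoq and Lep were dim in that array, at 3.28 and 3.62 log2, so the sum alone does not show adipocytes. In the same array the sum over 6 fibroblast markers was 5691 against 1444 and 2186. Both organoid arrays of letter C had more basal epithelial signal, with 6 markers summing to 9484 and 5510 against 2577 to 3121 in the organoids A and B. Of those 6 basal genes, 5 were higher in both C organoids than in any A or B organoid, which was seen for 17.1% of all genes. The part of these mixtures in the values below was not tested, and in bulk RNA fewer cells of a type cannot be told apart from less RNA per cell. As for the labelled types, 6 luminal markers summed to 72820 to 80632 in LD cells and 30084 to 36435 in organoids, while 8 T and NKT cell markers still summed to 571 to 747 in the sorted LD cells against 181 to 205. The widest difference among them was that of Ptprc, the pan-leukocyte CD45 gene (8.17 to 8.94 log2 against 2.64 to 2.99), while Cd4 and Cd8a were not called in either kind of organoid. A further 6 B and myeloid cell markers summed to 289 to 582 in LD cells and 116 to 267 in organoids.

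Zbtb16 encodes PLZF, a zinc finger repressor of transcription. In the LD arrays A, B and C its log2 intensity was 6.76, 6.47 and 6.89. In the MaSC organoids it was 8.82, 9.08 and 4.94, and in the yMaSC organoids 8.99, 8.80 and 4.87. The order of levels was thus organoids A and B at the top, LD cells in the middle and organoids C at the bottom, with no overlap between these 3 sets. Within the top set, the MaSC and yMaSC organoids were interleaved. The mean of both C organoids was 4.02 log2 below that of the A and B organoids, a 16.2-fold difference in intensity. The gap between the highest C and the lowest A or B organoid was 3.86.

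Fkbp5 encodes an HSP90-bound immunophilin that lowers the receptor's affinity for hormone and so closes a feedback loop. The LD arrays A, B and C read 9.07, 8.55 and 9.22 log2. The MaSC organoids read 11.42, 11.38 and 7.45, and the yMaSC organoids 11.60, 11.37 and 8.48. As for Zbtb16, organoids A and B lay above all LD arrays and organoids C below them. The C organoids were 3.48 log2 (11.1-fold) below the A and B organoids on average, and here they differed from each other by 1.03.

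Tsc22d3 encodes GILZ, a leucine zipper protein that mediates anti-inflammatory effects of glucocorticoids. Its log2 intensity was 7.93, 8.05 and 8.38 in LD arrays A, B and C, 10.78, 10.53 and 9.14 in the MaSC organoids and 10.92, 10.72 and 9.39 in the yMaSC organoids. The C organoids were again the lowest organoids, by 1.47 log2 (2.78-fold), but unlike for the genes above they stayed higher than every LD array.

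Klf9 encodes a Krüppel-like transcription factor that is also induced by thyroid hormone. It read 11.60, 10.77 and 11.29 in LD arrays A, B and C, 11.93, 12.10 and 10.67 in the MaSC organoids and 11.81, 12.06 and 11.10 in the yMaSC organoids. The C organoids were 1.09 log2 (2.13-fold) below A and B and overlapped the LD range, in which array B was the lowest.

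Sgk1 encodes a serum- and glucocorticoid-regulated kinase that raises sodium channel activity at the cell surface. Its log2 intensity was 13.03, 12.82 and 12.92 in LD arrays A, B and C, 12.42, 11.59 and 12.16 in the MaSC organoids and 12.64, 11.85 and 11.33 in the yMaSC organoids. All 6 organoids were below all LD arrays. The C organoids, at 0.38 log2 below A and B on average, overlapped them, so Sgk1 did not share the split by letter.

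Nr3c1, the gene of the receptor itself, read 9.28, 8.65 and 9.37 log2 in LD arrays A, B and C, 8.43, 8.45 and 8.82 in the MaSC organoids and 8.32, 8.41 and 9.29 in the yMaSC organoids. Here the C organoids were the highest organoids, by 0.65 log2 on average, and overlapped the LD cells, whose array B was again the lowest. The receptor and the 4 genes that were lower in organoids C thus lay on opposite sides.

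**Figure D1:**
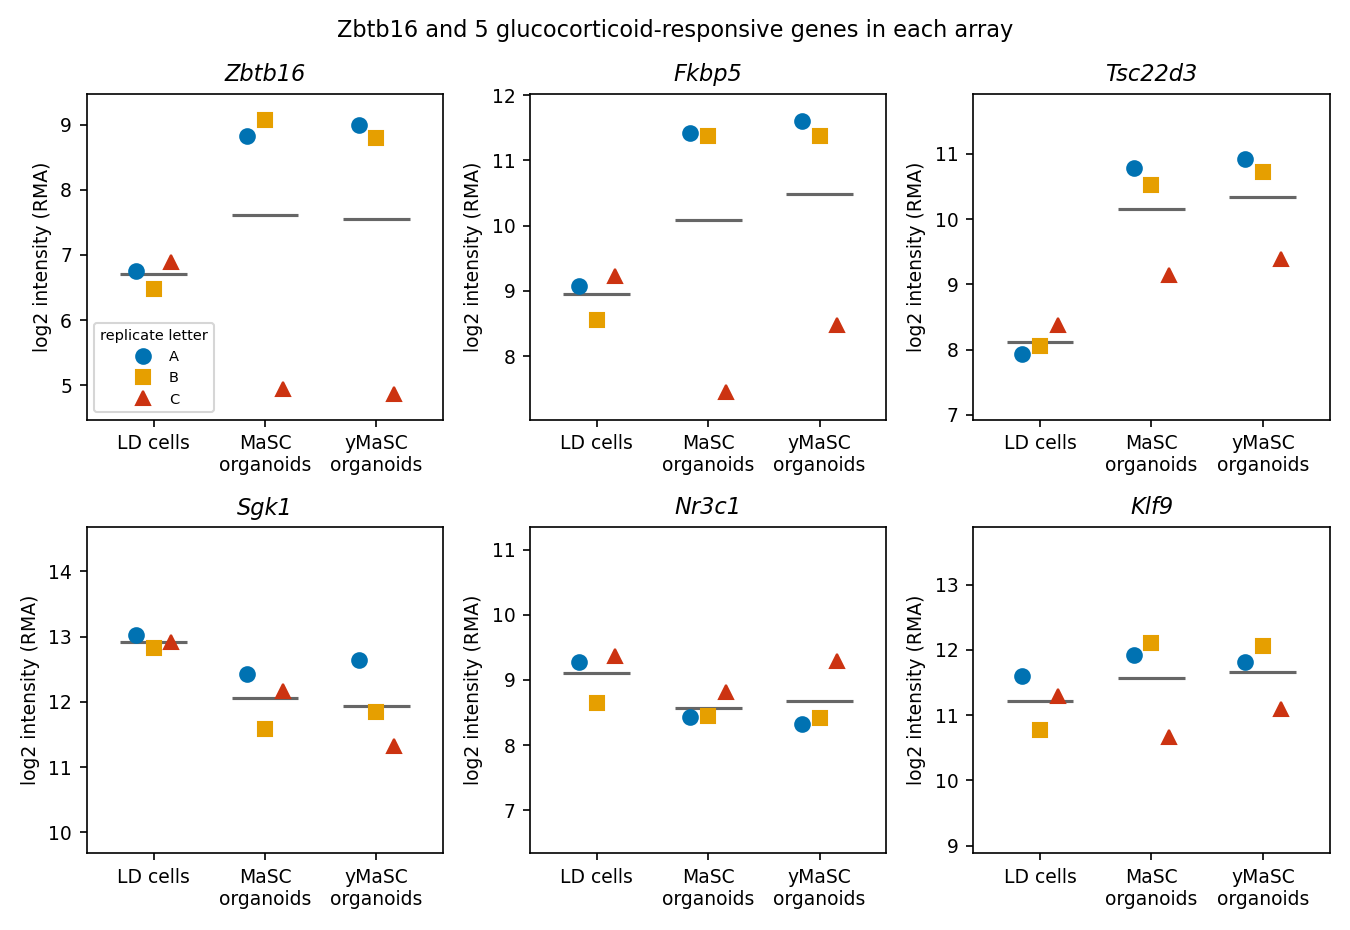
Log2 intensity (vertical axes, RMA values, each panel with its own range) of the 6 genes in the 9 arrays, by sample kind, with colour and shape for the replicate letter and grey bars for group means. Both C organoids lie far below A and B for Zbtb16 (4.94 and 4.87 against 8.80 to 9.08) and Fkbp5, less so for Tsc22d3 and Klf9, and above them for Nr3c1.

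Most genes had several probe sets, which served as a check on the description within the same RNA. All 3 probe sets of Zbtb16 placed both C organoids below every A and B organoid, with mean differences of -1.53 to -5.86 log2. In the probe set with -5.86 the C organoids read 2.63 and 2.51, near the lowest intensities of the table, so the size of that difference is uncertain. For Fkbp5, 2 of 3 did, and the third stayed between 2.31 and 2.97 on every array, near the lowest intensities of the table. Of 4 Tsc22d3 probe sets, 2 placed both C organoids below A and B, by gaps of 1.14 and 1.19, whereas a further pair, at 6.41 to 6.96 and 3.99 to 4.32, differed by -0.14 and 0.17. Of 7 Klf9 probe sets, 6 were lower in both C organoids, and the other was the dimmest, at 3.88 to 4.49. For Nr3c1, 5 of 6 probe sets were higher in both C organoids, with a range of -0.03 to 0.65 over all 6. Sgk1 had a single probe set.

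**Figure D2:**
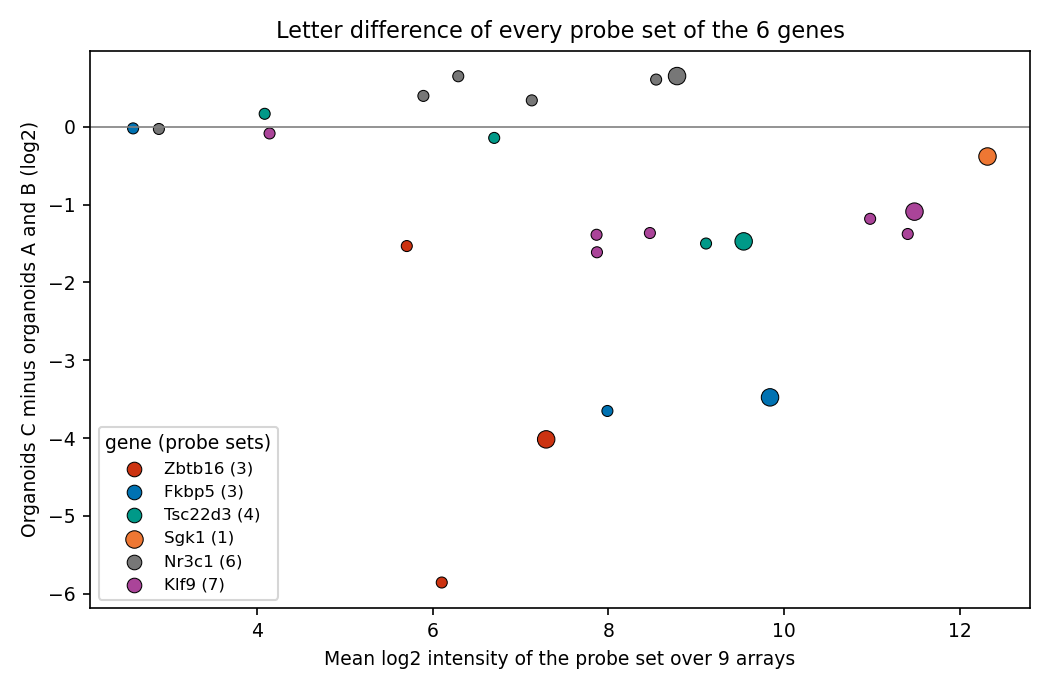
Mean log2 intensity of each of the 24 probe sets over 9 arrays (horizontal axis) against the mean of organoids C minus the mean of organoids A and B (vertical axis, log2), coloured by gene, with large points for the probe set used per gene. Zbtb16 reaches -5.86, in a probe set whose C organoids read 2.63 and 2.51, near the lowest intensities. The bright Fkbp5 and Klf9 probe sets lie below 0, 5 of the 6 of Nr3c1 lie above 0, and probe sets with a mean near the lowest intensities lie close to 0.

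Over all 18194 genes the median difference between organoids C and organoids A and B was 0.01 log2, and 70 genes, or 0.385%, had both C organoids at least 1 log2 below every A and B organoid. The opposite, C at least 1 log2 above, was seen for 159 genes, or 0.874%. Ranked from the lowest difference, Zbtb16 was number 4, Fkbp5 number 6, Tsc22d3 number 78 and Klf9 number 143, whereas Sgk1 was number 1516 and Nr3c1 number 17360. Of the 6 genes, 3 (Zbtb16, Fkbp5 and Tsc22d3) met the 1 log2 gap downwards, a count that the choice of the set itself fixed in part and from which nothing is read. Quantile normalization or a common median for all arrays changed the sign of none of these 6 differences.

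A list of 26 further genes that glucocorticoids are known to induce was described in the same way. Of these, 5 had both C organoids at least 1 log2 below every A and B organoid, against 0.385% of all genes. None had them at least 1 log2 above, against 0.874% of all genes, and the median difference was -0.43 log2. The list was drawn up with earlier results of these data known, so these counts are no independent support. The 5 were Txnip, an inhibitor of thioredoxin and glucose uptake (C lower by 3.33 log2 on average), Scnn1a, the alpha subunit of the epithelial sodium channel (-2.45), Pdk4, which inhibits pyruvate dehydrogenase (-2.42), Dusp1, a MAP kinase phosphatase (-2.33), and the clock gene Per1 (-1.67). Per1 values were 8.47, 8.78 and 6.83 in MaSC organoids A, B and C and 8.51, 8.72 and 7.08 in yMaSC organoids, with the C organoids below the LD range of 7.42 to 8.40. In 14 of the 26 both C organoids were below every A and B organoid by any margin, against 17.8% of all genes. In 2, Angptl4 and Tgm2, they were above, against 17.1% of all genes. Other listed genes, such as Zfp36 with a difference of 0.08, Rgs2 with 0.06 and Cdkn1c with 0.01, showed no split by letter.

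The 3 receptors analysed here that share the response element were all higher in both C organoids than in any A or B organoid, which was seen for 17.1% of all genes. Besides Nr3c1 these were Nr3c2, the mineralocorticoid receptor, by 0.69 log2, and Pgr, the progesterone receptor, by 1.40. Pgr read 10.74, 10.87 and 10.59 in LD arrays A, B and C, 8.98, 8.41 and 10.47 in MaSC organoids and 8.90, 8.73 and 9.83 in yMaSC organoids. Among 6 milk protein genes, Csn1s1 (alpha-S1 casein) was 4.56 log2 higher and Lalba (alpha-lactalbumin) 2.74 log2 higher in organoids C, the other way from Zbtb16. Csn1s2a, Csn3 and Wap differed by 0.22, 0.04 and -0.05 log2, with C overlapping A and B. The cause was not tested. Csn2, the beta-casein gene, was at 3.11 to 3.50 in all 6 organoids, with organoids C lower by 0.24 log2 on average.

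**Figure D3:**
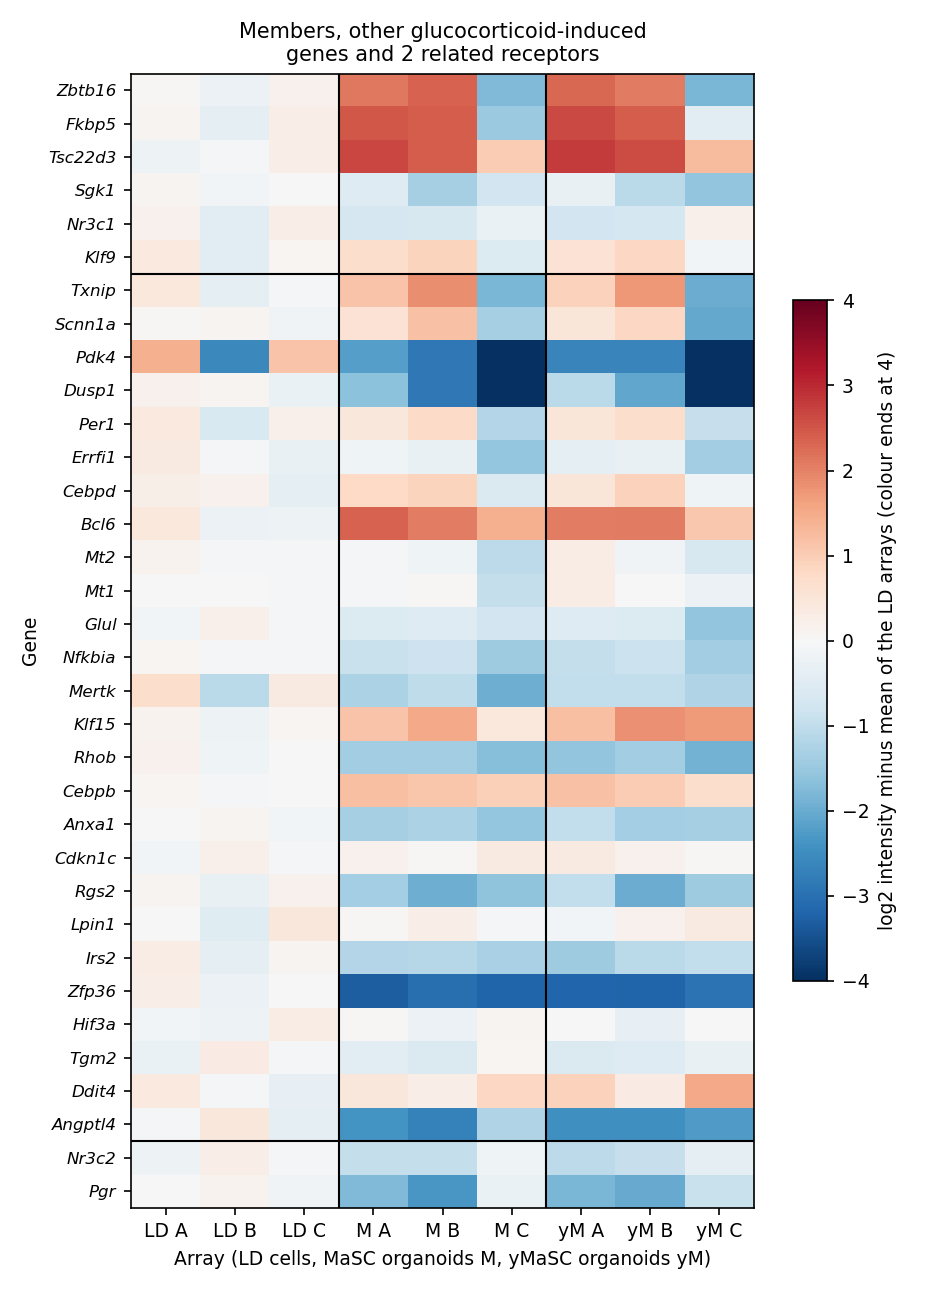
Log2 intensity minus the mean of the 3 LD arrays (colour, ending at 4 in either direction) for the 6 genes, the 26 other glucocorticoid-induced genes ordered by their difference between organoids C and organoids A and B, and the receptors Nr3c2 and Pgr, with arrays in columns. Txnip, Scnn1a and Per1 follow Zbtb16 in turning from red in organoids A and B to blue in organoids C, and Zfp36 is blue in all 6 organoids.

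The comparison of organoids with LD cells asked how the genes differed between differentiated luminal cells and stem cell-derived cultures. Tsc22d3 was higher in both kinds of organoid, by 2.03 log2 (SE 0.49, n = 3 against 3, limma adjusted p = 0.0109, 4.08-fold) in MaSC organoids and by 2.22 log2 (SE 0.49, limma adjusted p = 0.00723, 4.67-fold) in yMaSC organoids. The call in MaSC organoids ended without the organoids B of both kinds (limma adjusted p = 0.0623). Sgk1 fell by 0.98 log2 in yMaSC organoids (SE 0.32, limma adjusted p = 0.0410). In MaSC organoids its difference of -0.87 missed the threshold (limma adjusted p = 0.0633). The call on Sgk1 in yMaSC organoids also ended without any single LD array (limma adjusted p from 0.0701 to 0.104), without MaSC organoid C (0.0547), without yMaSC organoid B or C (0.110 each) and without organoids B of both kinds (0.108). Of the 6 genes, 1 was higher and 0 lower in MaSC organoids, where 22.1% and 15.2% of all genes were called, and 1 was higher and 1 lower in yMaSC organoids, where 21.6% and 14.3% were called. The shares for the 6 genes were therefore near those of the whole table.

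With all arrays, Zbtb16 and Fkbp5 gave no call, and the SD within the 3 MaSC organoids was 2.32 log2 for Zbtb16 and 2.28 log2 for Fkbp5, against 0.22 and 0.35 in LD cells. The difference from LD cells was 0.91 (SE 1.29, 95% interval -2.04 to 3.85, limma adjusted p = 0.626) for Zbtb16 and 1.14 (SE 1.14, limma adjusted p = 0.476) for Fkbp5 in MaSC organoids, and 0.85 (limma adjusted p = 0.656) and 1.54 (limma adjusted p = 0.337) in yMaSC organoids. Klf9 and Nr3c1 differed by 0.35 and -0.53 in MaSC organoids and by 0.44 and -0.43 in yMaSC organoids, with limma adjusted p of 0.548, 0.182, 0.448 and 0.287. The probe sets of Nr3c1 did not share a sign, since another gave 0.26 and 0.27. The dimmest Klf9 probe set was lower in organoids by 0.36 and 0.43 log2 (limma adjusted p = 0.0236 and 0.0109), against the direction of the brightest one. Both Tsc22d3 probe sets that fell in organoids C were higher in organoids than in LD cells, and the other pair differed by 0.09 to 0.27 without a call.

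Leaving both C organoids out gave 2 organoids of each kind against 3 LD arrays. Zbtb16 was then higher by 2.24 log2 in MaSC organoids (SE 0.17, 4.73-fold, limma adjusted p = 0.000129) and by 2.19 log2 in yMaSC organoids (limma adjusted p = 0.000151). Fkbp5 was higher by 2.45 and 2.54 log2 (limma adjusted p = 0.000223 and 0.000204) and Tsc22d3 by 2.54 and 2.70 log2 (9.67e-05 and 8.14e-05). Klf9 was higher by 0.80 log2 in MaSC organoids (limma adjusted p = 0.0391) and gave 0.72 in yMaSC organoids (0.0567), Nr3c1 gave -0.66 in MaSC organoids (0.0532) and was lower by 0.74 log2 in yMaSC organoids (0.0367), and Sgk1 gave -0.92 and -0.68 (0.0527 and 0.131). This made 4 of 6 genes higher and 0 lower in MaSC organoids (21.1% and 14% of all genes) and 3 higher and 1 lower in yMaSC organoids (21.5% and 13.5%). The lower one was Nr3c1, on its brightest probe set. None of its other probe sets placed every A and B organoid below every LD array. The C organoids are the arrays on which the choice of Zbtb16 rests, so leaving them out also removed the spread that had been selected, and these p-values are no independent support.

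**Figure D4:**
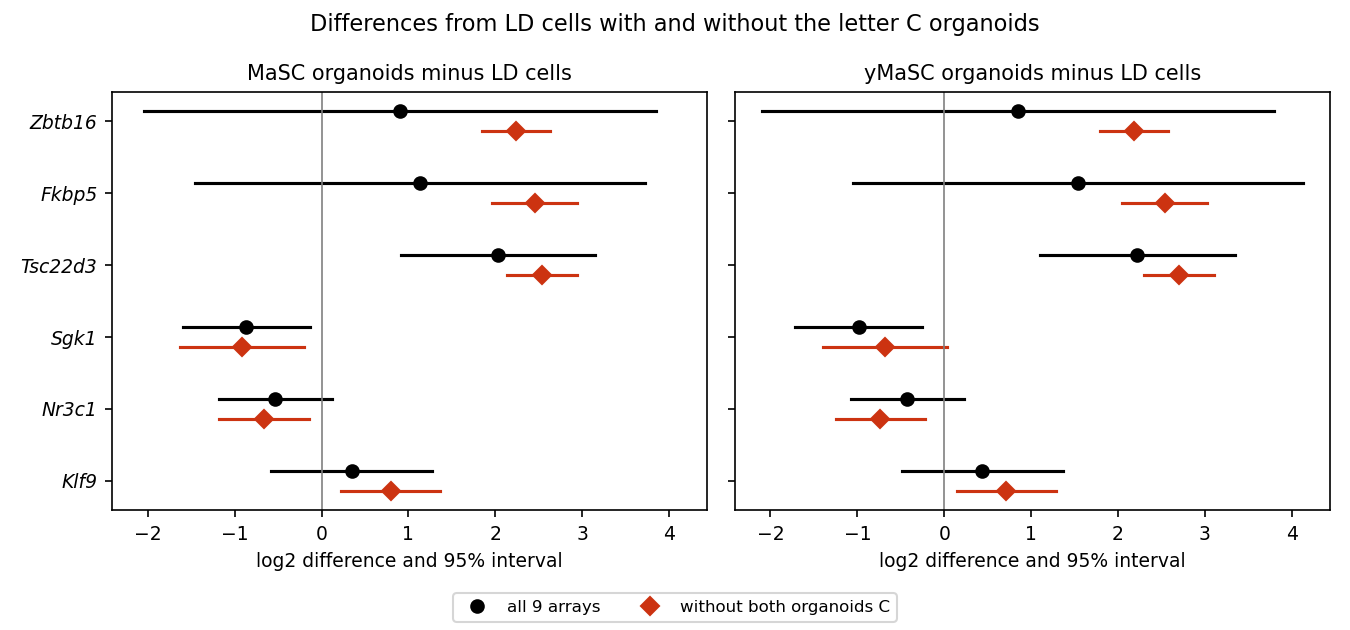
Log2 difference from LD cells (horizontal axis) with its 95% interval for the 6 genes, in MaSC organoids (left) and yMaSC organoids (right), from all 9 arrays (black circles) and without both C organoids (red diamonds). For Zbtb16 in MaSC organoids the interval narrows from -2.04 to 3.85 to 1.85 to 2.63, whereas Tsc22d3 lies above 0 in every case. Zbtb16 was chosen by the spread that leaving out organoids C removes, so its narrowing is no independent support.

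The comparison of yMaSC with MaSC organoids asked whether organoids of reprogrammed LD cells differed from those of native stem cells. With limma, 0 of 18194 genes (0%) were called, 104 had an unadjusted p under 0.05, and none of the 6 genes was among the 104. Since organoids of the same letter deviated together, the letter was also fitted as a block in the 6 organoid arrays, which again called 0 genes, with 597 at an unadjusted p under 0.05. In that paired fit the yMaSC minus MaSC difference of Zbtb16 was -0.06 log2 with a 95% interval of -0.33 to 0.21, against -3.01 to 2.89 without the pairing. The interval was -0.13 to 0.93 for Fkbp5, -0.70 to 0.47 for Sgk1, -0.23 to 0.45 for Nr3c1 and -0.23 to 0.41 for Klf9. For Tsc22d3 the yMaSC organoid was higher under each letter, by 0.14, 0.19 and 0.25, and the interval was 0.01 to 0.38 (unadjusted p = 0.0457, limma adjusted p = 0.964), which did not pass. For Zbtb16 a difference beyond 1.26-fold lower or 1.16-fold higher lay outside the paired interval.

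Genes around the receptor also differed between organoids and LD cells. Of the 3 receptors, none was higher, while 1 in MaSC organoids and 2 in yMaSC organoids were lower (15.2% and 14.3% of all genes). Without both C organoids 2 and 3 were lower (14% and 13.5% of all genes). Pgr fell by 1.45 and 1.58 log2 (limma adjusted p = 0.0452 and 0.0330), and Nr3c2 fell by 0.79 log2 in yMaSC organoids (0.0409) and gave -0.69 in MaSC organoids (0.0642). The Pgr call in MaSC organoids ended without any single LD array, without MaSC or yMaSC organoid A or B, with the trended prior and with the 2 groups alone, in 11 of 23 alternatives (adjusted p up to 0.170). In yMaSC organoids the calls on Pgr and Nr3c2 each ended without any single LD array and without yMaSC organoid A or B (adjusted p up to 0.133 and 0.154). By letter, 6 of 9 coregulators had both C organoids below every A and B organoid by any margin, against 17.8% of all genes. The opposite held for 1, against 17.1% of all genes. The downward gaps ran from 0.02 log2 in Crebbp and Med1 to 0.52 in Ncoa3, so none reached 1 log2. Of the 9, 4 were higher in each kind of organoid (22.1% and 21.6% of all genes) and 1 lower (15.2% and 14.3%). The higher ones included the p160 coactivators Ncoa3 (1.31 and 1.16 log2), Ncoa1 (1.11 and 0.99 log2) and Ncoa2 (1.09 and 0.90 log2), with limma adjusted p between 0.000261 and 0.00912. Both Ncoa2 calls ended with the mean of its probe sets (adjusted p = 0.120 and 0.226), and in yMaSC organoids the Ncoa2 and Ncoa3 calls ended without organoids B of both kinds, that of Ncoa3 also without organoids A. Ncoa1 read 8.08 to 8.29 in LD cells and 8.95 to 9.41 in organoids, so the groups did not overlap. Nrip1, a corepressor that nuclear receptors bind when hormone is present, fell by 1.26 and 1.37 log2 (limma adjusted p = 0.000370 and 0.000254).

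Of 6 chaperones and cochaperones, 1 was higher in each kind of organoid (22.1% and 21.6% of all genes) and 1 lower (15.2% and 14.3%). These were St13, which links HSP70 to the receptor complex (0.44 and 0.37 log2, limma adjusted p = 0.00736 and 0.0161), and Hsp90aa1, the inducible HSP90, which fell by 0.50 and 0.48 log2 (0.0106 and 0.0132). In yMaSC organoids both calls ended without yMaSC organoid B, and the St13 calls ended in both with a common median or the mean of its probe sets (adjusted p up to 0.380 and 0.358). Of 6 genes for hormone supply, H6pd, which supplies NADPH to the glucocorticoid-activating enzyme Hsd11b1, was higher by 1.32 and 1.18 log2 (limma adjusted p = 0.0249 and 0.0415). Both calls ended without LD array A or C and without MaSC organoid A or B, the second also without yMaSC organoid A or B, and both with a common median (adjusted p up to 0.122 and 0.163 over all alternatives). H6pd also split by letter, with 9.88, 9.88 and 8.95 in MaSC organoids and 9.53, 10.08 and 8.66 in yMaSC organoids. Hsd11b2, whose enzyme inactivates glucocorticoid, fell by 0.36 log2 in MaSC organoids (limma adjusted p = 0.0279) and gave -0.25 in yMaSC organoids (0.113), at a dim 3.45 to 4.10 over all arrays. That call ended without LD array A and without MaSC organoid B or C (adjusted p up to 0.156 over all alternatives). Hsd11b1 itself gave 5.71 to 6.42 over all arrays and was not called.

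Among the 26 other glucocorticoid-induced genes, 3 were higher and 10 lower in MaSC organoids, and 4 higher and 9 lower in yMaSC organoids, where of all genes 22.1% were higher and 15.2% lower in MaSC organoids and 21.6% higher and 14.3% lower in yMaSC organoids. The median differences were -0.38 and -0.35 log2, against -0.02 and -0.01 over all genes. With both C organoids left out, 21.1% of all genes were higher and 14% lower in MaSC organoids, and 21.5% and 13.5% in yMaSC organoids. Of the 26, 6 were then higher and 9 lower in each kind of organoid. Several of the lower ones are also early response genes of growth factor and stress signals, such as Zfp36, which destabilises mRNA. Zfp36 fell from 11.70 to 12.20 in LD cells to 8.66 to 8.98 in organoids, by 3.17 and 3.11 log2 (limma adjusted p = 3.24e-06 and 4.29e-06). Dusp1 fell by 2.94 and 2.44 log2 (0.0208 and 0.0465), and both calls ended without LD array A or B and without MaSC organoid B (adjusted p up to 0.0816 and 0.121). The first also ended without MaSC organoid C, and the second without LD array C or yMaSC organoid B or C. Angptl4, an inhibitor of lipoprotein lipase, fell by 2.11 and 2.40 log2 (0.00195 and 0.00105). Pdk4 fell by 3.43 log2 in MaSC organoids (0.0495) and gave -3.33 in yMaSC organoids (0.0573), but LD array B, at 5.80 against 9.80 and 9.53, lay among the organoids, and the call ended in 13 of 22 alternatives, 7 of them with a single array left out (all but LD array B and yMaSC organoid C). The higher genes in both were Bcl6, a BTB zinc finger repressor like Zbtb16 (1.94 and 1.73 log2, limma adjusted p = 0.00186 and 0.00352), Klf15 and Cebpb, with Ddit4 in yMaSC organoids alone, a difference between organoids that was not called. The call on Klf15 in MaSC organoids ended without LD array B and without MaSC organoid A or B, and that on Ddit4 in 13 of 23 alternatives, 6 of them with a single array left out (LD array B or C, MaSC organoid A or B, yMaSC organoid A or C).

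Sgk1 signals by phosphorylating targets such as Ndrg1 and the ubiquitin ligase Nedd4l, which controls the sodium channel. Of 11 genes of this pathway, 1 was higher and 1 lower in MaSC organoids (22.1% and 15.2% of all genes). In yMaSC organoids 1 was higher and 2 lower (21.6% and 14.3% of all genes). Without both C organoids 3 were higher and 3 lower in MaSC organoids (21.1% and 14% of all genes). In yMaSC organoids 3 were then higher and 2 lower (21.5% and 13.5% of all genes). Scnn1b, the channel's beta subunit, fell by 2.46 and 2.45 log2 (limma adjusted p = 7.60e-05 and 8.89e-05), from 6.83 to 7.30 in LD cells to 4.43 to 5.13 in organoids. Ndrg2 was higher by 1.22 and 1.14 log2 (0.00148 and 0.00221). Scnn1a, in contrast, was not called and followed the letters, at 7.92, 8.52 and 6.01 in MaSC organoids and 7.83, 8.19 and 5.32 in yMaSC organoids. Of 15 close relatives of the 6 genes, none was higher (22.1% and 21.6% of all genes in MaSC and yMaSC organoids). In each kind of organoid 4 were lower (15.2% and 14.3% of all genes). These were Pgr, the Krüppel-like factor Klf16 (7.64 to 7.88 in LD cells and 6.13 to 6.51 in organoids, limma adjusted p = 3.64e-05 and 5.05e-05), the BTB zinc finger gene Zbtb7a (-1.18 and -1.13 log2, 0.000733 and 0.000979) and Sgk2 in MaSC and Nr3c2 in yMaSC organoids. The call on Sgk2 (adjusted p = 0.0479) ended on leaving out any single array but LD array B. The relatives of Tsc22d3 did not move with it across the letters, since Tsc22d1 was 1.35 log2 higher in organoids C.

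Of 6 milk protein genes, Csn3 (kappa-casein) was higher in both kinds of organoid, by 0.89 and 0.92 log2 (limma adjusted p = 0.000102 and 9.70e-05). Csn2 differed by -6.46 and -6.45 log2 (0.0444 and 0.0461), where LD array B was as low as the organoids, and both calls ended on leaving out any single array but that one (adjusted p up to 0.143 and 0.149 over all alternatives).

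The 8 genes whose values were most like those of Zbtb16 over the 9 arrays were sought among 2467 genes with a range of at least 2 log2. By Pearson's r these were Defb1 (0.976), Sult1a1 (0.976), Fkbp5 (0.967), Txnip (0.962), Depdc7 (0.929), Scnn1a (0.925), Slc3a2 (0.925) and Abcg1 (0.924). The arrays fall into clusters by kind and letter and are not independent, so these values order the genes and test nothing. Defb1, which encodes an epithelial antimicrobial beta-defensin, had the widest split of the 8, with 11.02, 10.58 and 5.44 in MaSC organoids and 11.82, 11.29 and 5.10 in yMaSC organoids. Sult1a1, a sulfotransferase gene, read 6.90, 7.50 and 3.85 and then 8.12, 7.55 and 4.25. Of the other genes of the set, Klf9 had r = 0.894, Tsc22d3 0.693, Sgk1 0.05 and Nr3c1 -0.72.

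**Figure D5:**
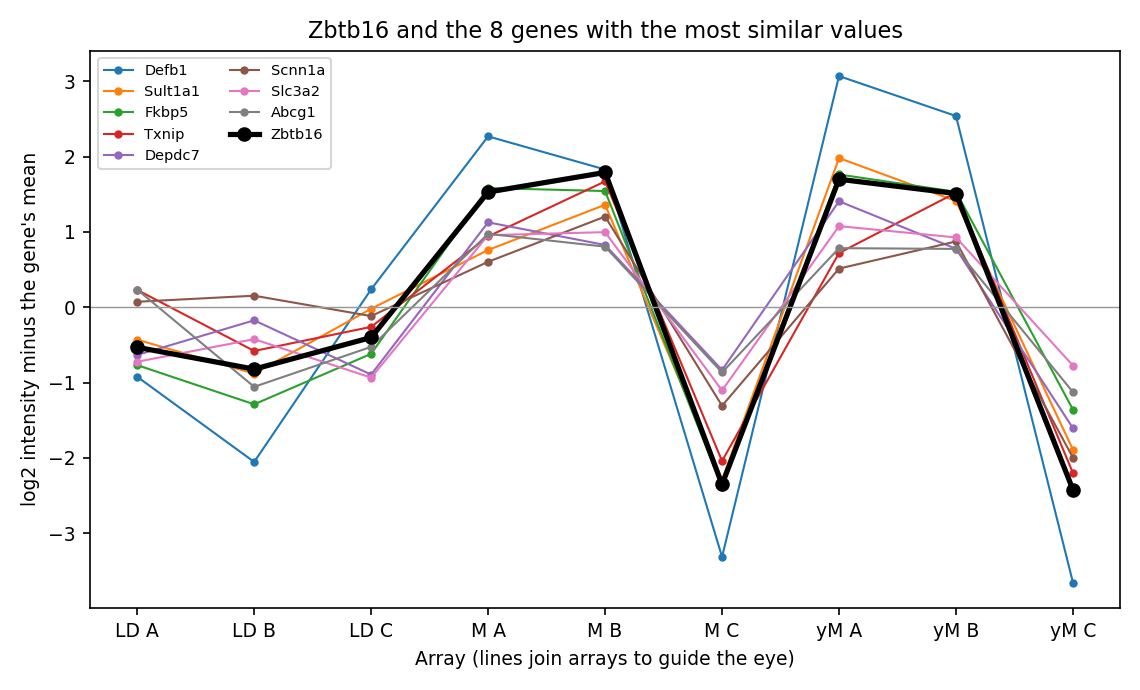
Log2 intensity minus each gene's mean over the 9 arrays (vertical axis) for Zbtb16 (thick black line) and the 8 genes with the highest Pearson's r to it, over LD cells, MaSC organoids (M) and yMaSC organoids (yM) of letters A, B and C. All 9 genes are highest in organoids A and B and drop in both C organoids, Defb1 most, from a mean of 11.2 to 5.27.

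The receptor's binding element was looked for in the promoters because the genes differed in their pattern. RefSeq windows from 250 bases before to 50 after the transcription start (build GRCm38.p6) were at hand for Fkbp5 (1), Tsc22d3 (3), Sgk1 (6) and Klf9 (1). The element searched was the half-site AGAACA, then any 3 bases, then TGTTCT, a palindrome that reads the same on both strands. A window of Sgk1 at chr10:21993640-21993939, plus strand, held it exactly, with its centre 182 bases before the start, as shown in capitals.

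Sgk1: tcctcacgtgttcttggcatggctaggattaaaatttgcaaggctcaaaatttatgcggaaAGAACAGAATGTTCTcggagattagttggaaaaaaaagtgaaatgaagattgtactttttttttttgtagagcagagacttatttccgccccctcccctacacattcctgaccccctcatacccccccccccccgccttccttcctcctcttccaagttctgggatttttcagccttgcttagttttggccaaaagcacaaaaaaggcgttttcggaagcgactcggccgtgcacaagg

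Among 32851 windows of all genes, 3 (0.00913%) held the element exactly, 54 (0.164%) with up to 1 mismatch and 606 (1.84%) with up to 2. The closest match in the windows of the other genes is given next, with the matching bases of the half-sites in capitals. It had 4 mismatches in Tsc22d3 (chrX:140548522-140548821, minus strand), 5 in Klf9 (chr19:23140976-23141275, plus strand) and 6 in Fkbp5 (chr17:28486100-28486399, minus strand).

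Sgk1: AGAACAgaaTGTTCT
Tsc22d3: cGAgCAgttTtTaCT
Klf9: gGAACggaacGgTCg
Fkbp5: tGAAgAggcgGagaT

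Of the 26 other glucocorticoid-induced genes, 21 had a window and none held the element with up to 2 mismatches. A match is a description of letters in a short window, and the windows leave out the more distant elements through which many of these genes are controlled.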

How the data were processed

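The authors deposited log2 values that they had made by RMA, which corrects background, quantile-normalizes the arrays and summarises the probes of each probe set (version not given in the sources used here). Lower quartiles were 3.47 to 3.59 and upper quartiles 7.39 to 7.59 over the 9 arrays, whose number limits the precision. The table held 45101 probe sets, of which 34958 were annotated to 1 gene, 932 to several and 9211 to none, and 34754 were found in RefSeq by gene identifier. Each of the 18194 genes was represented by its brightest probe set on average, with the others given for the 6 genes described.

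Groups were taken from the labels. A model of the 3 groups was fitted to every gene in limma 3.58.1 (R 4.3.3) with moderated variances. Calls were made where p, adjusted by Benjamini and Hochberg's method across the 18194 genes, was under 0.05. The code was tested on simulated data. Organoids of the same letter deviated together (r = 0.607, 0.611 and 0.649 for A, B and C over genes, from the data), and LD cells did not share the letters (r from -0.05 to 0.05). In the paired fit the letters therefore paired the organoids only. The alternatives with a fixed or a random block over all arrays applied the letters to LD cells as well. The labels call the samples biological replicas. Where nothing says how cultures were separated, p-values measure the spread between these arrays.

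The 6 genes and all lists were chosen with earlier results of these data known. The lists of pathway genes and markers came from general knowledge. List genes without a probe set of their own in the table used, among them Hsp90ab1, Ptges3 and Ppid, were not analysed here. Genes named were the 6, up to 4 called genes per list with the largest mean difference from LD cells, the 8 most like Zbtb16, and list genes with a gap of 1 log2 by letter. Further list genes were named after their values were seen. Alternatives covered blocks, probe set choice, scaling, priors, array weights and left-out arrays. Promoter windows were searched on RefSeq sequence.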

Additional observations from a re-analysis of the deposited data

How the results depend on the processing

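The number of the 6 genes called against LD cells depended on the processing. In MaSC organoids it was 1 and became 2 with the letter as a fixed replicate block or as a random block, with genes above the median level only, with array weights, with the 2 groups alone, and without organoids A of both kinds. The second gene was Nr3c1 with array weights and Sgk1 in the other 5. It was 3 with a common median (Tsc22d3, Sgk1 and Nr3c1), 0 without organoids B, 4 without organoids C, and 5 when LD array B was left out as well, an alternative chosen after seeing the data. Leaving out 1 array at a time gave 1 to 2. In yMaSC organoids it was 2 and became 1 with the 2 groups alone and without organoids B, and 4 without organoids C, with or without LD array B. Leaving out 1 array at a time gave 1 to 2. With array weights Nr3c1 passed and Sgk1 did not in yMaSC organoids, so that their number stayed at 2. The replicate block changed no other call on the 6 genes. As a fixed or random block over all arrays it also applied the letters to LD cells, which did not share them.

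Without organoids B, Tsc22d3 in MaSC organoids was not called (adjusted p = 0.0623, limma), and over all alternatives its difference was 1.15 to 2.54 log2. The difference of Zbtb16 in MaSC organoids ranged from 0.17 to 2.24 log2 and that of Fkbp5 from 0.47 to 2.45 log2, each with 2 calls in 23 alternatives. The adjusted p of Sgk1 ranged from 0.0167 to 0.256 in MaSC organoids and from 0.00658 to 0.146 in yMaSC organoids. A common median for the arrays moved all differences from LD cells by -0.25 and -0.26 log2, and the genes called higher and lower went from 4028 and 2762 to 3001 and 6992 in MaSC organoids and from 3927 and 2603 to 2798 and 6930 in yMaSC organoids. No call between yMaSC and MaSC organoids arose under any alternative. The letter difference changed sign for a dim Tsc22d3 probe set (0.17) and for a dim Nr3c1 probe set (-0.028). The causes were not tested.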
